A study of Mus musculus with 6 samples.

Results

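The myeloid Ms4a genes were examined in RNA from aortic valves of caAcvr1:Nfatc1Cre mice and their controls. The set holds 7 listed symbols, Ms4a4a, Ms4a4c, Ms4a6b, Ms4a6c, Ms4a6d, Ms4a7 and Ms4a8a, and 6 of them had a row among the 23107 genes in the count table. Ms4a4a had no row, so its level was not analysed here. The set was chosen because Ms4a6d was higher in every mutant library, so its difference between the groups is described without a test, and the same holds for the other members in that comparison. All 6 genes with a row passed the minimum of 10 counts in at least 3 libraries, and each of them had at least 16 counts in every library.

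The study sequenced 3 control and 3 mutant libraries from mice aged 4 months, all labelled Outbred. The mutants carried a Cre-activatable transgene for constitutively active Acvr1, a BMP type I receptor, together with a Cre cassette knocked into the Nfatc1 locus, and the labels call them Acvr1:Nfatc1Cre. The controls are labelled WT and wild type, while the methods count as controls mice from the same cross that lacked the transgene, the Cre or both, and which of these were sequenced is not given in the sources used here. Per the study, this Cre recombines in the endocardium and the mesenchyme derived from it, in valve interstitial cells and around the junction of leaflet and wall, and spares heart muscle and smooth muscle. The sources used here do not give the sex of the mice or the number of mice per library, so the spread between libraries may be in part technical.

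Ms4a genes encode small membrane proteins that cross the membrane several times, and the best known member is Ms4a1, the B cell antigen CD20. A second branch of the family is expressed in monocytes, macrophages and microglia, where Ms4a proteins sit beside Fc receptors and pattern recognition receptors and modulate their signaling. Macrophages are resident in the adult heart valve, where they take up debris and take part in matrix turnover. In RNA of whole tissue, more cells of a type and more RNA per cell cannot be told apart.

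The Ms4a genes lie side by side on chromosome 19 (assembly GRCm38, or mm10), and the 18 annotated Ms4a genes of the family list span 10962293 to 11640851. Ms4a6d lies on the minus strand from 11586604 to 11604849, Ms4a6b on the plus strand from 11516512 to 11531256 and Ms4a6c on the plus strand from 11469366 to 11482192. Ms4a4c (plus strand, 11404770 to 11427246) and Ms4a7 (minus strand, 11321039 to 11336146) lie between these and Ms4a8a (minus strand, 11067471 to 11081102). The members are related in sequence. Of the distinct stretches of 50 bases in the annotated transcripts of a gene, 8.19% in Ms4a4c, 5.85% in Ms4a6c, 3.44% in Ms4a6b and 2.31% in Ms4a6d also occurred in another Ms4a gene, and 0 did in Ms4a7 and Ms4a8a. All 36 member values in the deposited counts were whole numbers. Exons of Ms4a4c, Ms4a6b and Ms4a6c overlap in the annotation with those of another gene (Gm5692, Gm19261 and BE692007). The library kit does not mark strand, so that fragments from the overlap of such a pair could not be told apart.

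The windows around the start sites of 4 members are shown because they share a short core. RefSeq promoter windows (GRCm38.p6), 250 bases before to 50 bases after a start site, were at hand for 6 members, Ms4a4a among them, and the Ms4a6d window was not. These 6 genes had 7 windows, since Ms4a7 had a second start site, and the window of Ms4a4a held 0 copies of GGAAGT. Among 5 motifs searched on both strands was GGAAGT, a core recognised by ETS factors such as PU.1, the lineage factor of macrophages. It occurred in 4 of the 7 windows, those of Ms4a6b, Ms4a6c and Ms4a4c and 1 of the pair of Ms4a7, and in 23.8% of all 32851 windows of the same length. GAGGAA, another core bound by PU.1, occurred in 2 of the 7, in Ms4a7 and Ms4a4c, and in 28.3% of all windows. The AP-1 site TGANTCA was in 2 of the 7 (Ms4a8a and the second window of Ms4a7) and in 7.81% of all windows, and TATAAA, the TATA box, in 0 of the 7 and in 13.6%. In the sequences that follow, read along the strand of each gene, the capitals mark the GGAAGT core, written ACTTCC where it lies on the other strand. The windows of Ms4a6b and Ms4a4c lie inside the gene spans given above, so their RefSeq start sites are not the first bases of those spans. The windows are chr19:11518309-11518608 (plus strand) for Ms4a6b, chr19:11469118-11469417 (plus strand) for Ms4a6c, chr19:11336097-11336396 (minus strand) for Ms4a7 and chr19:11407411-11407710 (plus strand) for Ms4a4c.
Ms4a6b: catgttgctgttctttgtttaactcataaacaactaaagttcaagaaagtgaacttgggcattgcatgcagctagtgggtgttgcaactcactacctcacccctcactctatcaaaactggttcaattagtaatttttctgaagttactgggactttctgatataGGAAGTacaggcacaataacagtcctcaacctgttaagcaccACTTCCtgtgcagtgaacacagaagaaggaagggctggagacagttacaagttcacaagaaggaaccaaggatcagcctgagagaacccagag
Ms4a6c: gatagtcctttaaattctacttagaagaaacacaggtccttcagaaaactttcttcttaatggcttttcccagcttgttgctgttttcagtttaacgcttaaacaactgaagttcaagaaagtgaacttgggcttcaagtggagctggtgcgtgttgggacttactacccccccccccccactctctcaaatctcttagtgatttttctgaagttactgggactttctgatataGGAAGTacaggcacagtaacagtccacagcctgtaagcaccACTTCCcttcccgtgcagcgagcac
Ms4a7: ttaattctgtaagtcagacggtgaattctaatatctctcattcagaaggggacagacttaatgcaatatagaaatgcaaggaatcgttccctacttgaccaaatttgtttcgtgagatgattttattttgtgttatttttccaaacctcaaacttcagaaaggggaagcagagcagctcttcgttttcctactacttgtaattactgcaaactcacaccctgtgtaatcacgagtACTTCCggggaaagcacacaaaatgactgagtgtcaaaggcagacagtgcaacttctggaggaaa
Ms4a4c: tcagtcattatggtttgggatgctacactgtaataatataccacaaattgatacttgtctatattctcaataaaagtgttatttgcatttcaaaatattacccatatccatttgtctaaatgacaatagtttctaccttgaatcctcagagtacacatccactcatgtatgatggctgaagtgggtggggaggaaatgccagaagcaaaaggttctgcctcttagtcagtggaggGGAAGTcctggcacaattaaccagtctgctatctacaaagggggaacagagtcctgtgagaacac

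The Ms4a6b and Ms4a6c windows were alike, with 182 identical bases in 222 aligned columns, and each held the core 2 times, once on each strand. Their longest run without a difference had 48 bases and held the core on the plus strand (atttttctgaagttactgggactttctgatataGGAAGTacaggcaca). That run began 118 bases before the RefSeq start site of Ms4a6b and 49 bases before that of Ms4a6c. In Ms4a4c and in Ms4a7 the core began 15 bases before the RefSeq start site. It lay on the plus strand of the gene in Ms4a4c and on the other strand in Ms4a7. The Ms4a4c window also resembled that of Ms4a4b, the neighbouring gene known from T cells, with 162 identical bases in 183 aligned columns. The core of an interferon-stimulated response element, searched as GAAA, any 2 bases and GAAA on both strands, was in 0 of the 7 windows and in 3.44% of all windows. A match describes these letters in the reference, and binding was not measured here.

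Ms4a6d, which has been described in macrophages together with the receptor Vsig4, was read at 8.70, 9.02 and 9.65 CPM in control replicates 1, 2 and 3. In mutant replicates 1, 2 and 3 it was read at 15.9, 18.5 and 16.1 CPM. CPM are counts scaled to a common library size. Every mutant library lay above every control library, which is the pattern that the set was chosen for, and the lowest mutant lay well clear of the highest control. The means were 9.12 ± 0.488 CPM (SD, n = 3) and 16.8 ± 1.46 CPM (SD, n = 3), a 1.85-fold ratio. The log2 fold change in edgeR was 0.88 (standard error, SE, 0.13), and leaving out each library in turn gave 0.81 to 0.93. No other member varied so little within the groups as Ms4a6d, whose log2 values deviated from the group means by a root mean square of 0.0802.

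Ms4a6b and Ms4a6c, the closest relatives of Ms4a6d, were also read higher in every mutant library. Ms4a6b, which is found in macrophages and in T cells, was read at 15.4, 14.95 and 17.5 CPM in the controls and at 23.9, 26.0 and 19.2 CPM in the mutants. For Ms4a6b the groups lay close together, since mutant replicate 3 was near control replicate 3. Its log2 fold change was 0.53 (SE 0.15). Ms4a6c was read at 8.32, 6.82 and 11.2 CPM in the controls and at 11.5, 12.9 and 16.7 CPM in the mutants. The highest control of Ms4a6c, replicate 3, almost reached the lowest mutant, replicate 1. The log2 fold change of Ms4a6c was 0.64 (SE 0.24), and it was 0.47 when mutant replicate 3 was left out and 0.85 when control replicate 3 was. The 3 mutants were not ordered alike in the trio, as mutant replicate 3 was the highest for Ms4a6c and the lowest for Ms4a6b.

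**Figure D1:**
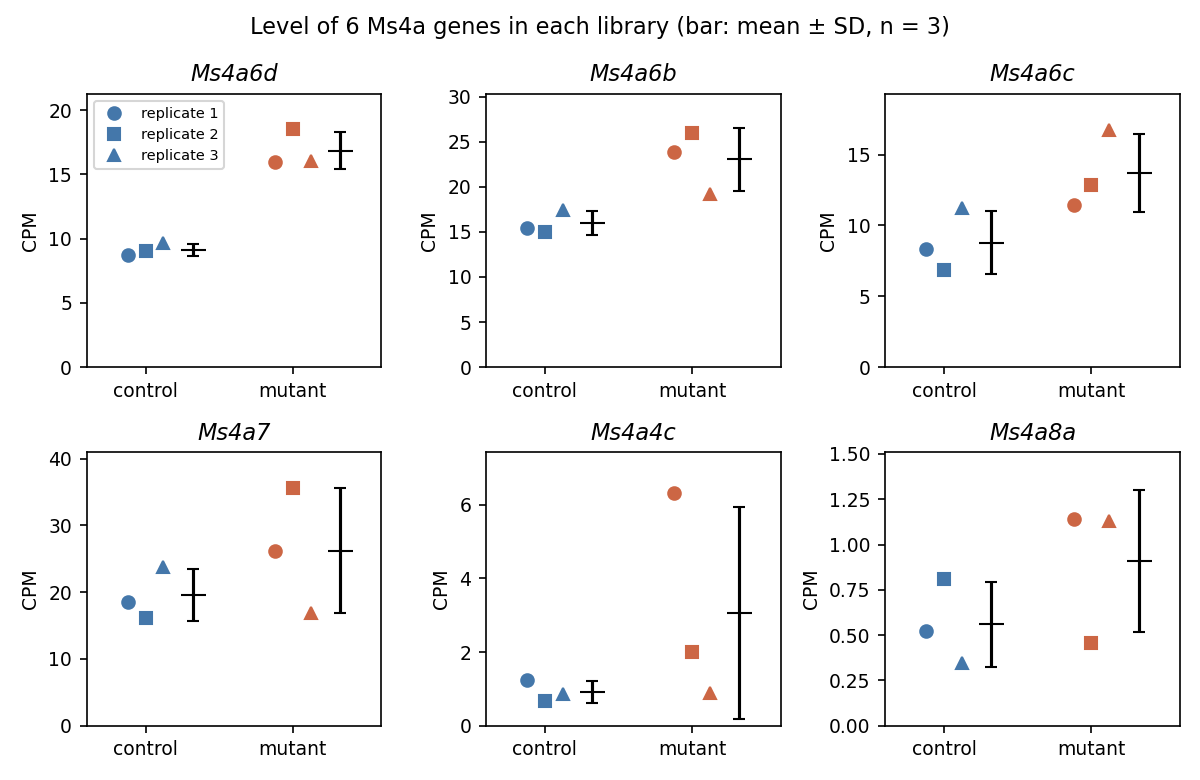
Level of the 6 Ms4a genes in CPM (vertical axis, from 0) in the 3 control and 3 mutant libraries, with symbols for replicates and black bars for the mean ± SD. In Ms4a6d, Ms4a6b and Ms4a6c every mutant lies above every control, while Ms4a4c is set apart by mutant replicate 1 at 6.33 CPM.

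Ms4a7, a marker of mature macrophages that is low in monocytes, was read at 18.6, 16.2 and 23.8 CPM in the controls and at 26.2, 35.6 and 16.9 CPM in the mutants. Mutant replicate 3 lay within the range of the controls, so that the groups overlapped. The log2 fold change of Ms4a7 was 0.43 (SE 0.28), and leaving out mutant replicate 2 gave 0.14, while leaving out mutant replicate 3 gave 0.66. Ms4a8a, known from alternatively activated macrophages, was scarce, with 16 to 59 counts per library. It was read at 0.523, 0.811 and 0.348 CPM in the controls and at 1.14, 0.455 and 1.13 CPM in the mutants, and the groups overlapped. Its log2 fold change was 0.69 (SE 0.54), and it was 0.44 when control replicate 3 was left out and 1.05 when control replicate 2 was.

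Ms4a4c, a gene of monocytes and activated myeloid cells that is known to respond to interferon, was scarce in most libraries. It was read at 1.25, 0.672 and 0.848 CPM in the controls, and at 6.33, 1.999 and 0.879 CPM in the mutants. The counts behind these levels were 67, 34 and 39 in the controls and 328, 79 and 28 in the mutants. Mutant replicate 1 stood far above all other libraries, and mutant replicate 3 lay among the controls. The log2 fold change of Ms4a4c was 1.74 (SE 0.72), and without mutant replicate 1 it was 0.64.

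In the comparison of mutants with controls, 6 of the 6 members had a log2 fold change above 0, where 52.2% of the 15354 genes tested had one. Their median log2 fold change was 0.67, and that of all genes tested was 0.0097. In 3 of the 6 the mutants lay above the controls without overlap, as they did in 4.04% of all genes tested. Because the set was picked on this contrast, nothing is read from these counts. A log2 fold change as large as that of Ms4a6d or larger was found in 2.22% of the genes tested, and in 0.769% together with groups that did not overlap. In 4.83% every mutant lay below every control, which was so for 0 of the members. The edgeR quasi-likelihood test with Benjamini-Hochberg adjustment called 0 of the 15354 genes at 0.05 (0%). Without adjustment 529 genes passed (3.45%), among them 244 that were higher in the mutants (1.59%). DESeq2 called 26 genes (0.169% of the 15344 with an adjusted p).

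Levels between genes were compared as CPM per kilobase of exon, averaged over the 6 libraries. Ms4a6d was the highest of the members at 7.48, followed by Ms4a6c at 5.48, Ms4a7 at 5.14 and Ms4a6b at 4.35. Ms4a4c at 1.14 and Ms4a8a at 0.409 followed at a distance. The mean of Ms4a4c rests on mutant replicate 1 at 3.62, against 0.384 to 1.14 in the other libraries. Ms4a4c stood above Ms4a8a in 4 of 6 libraries. Ms4a6d stood above Ms4a6c in 6 of 6 libraries, and Ms4a6b stood above Ms4a4c in 6 of 6. Neighbours in the middle of the order were not set apart, as Ms4a6c stood above Ms4a7 in 2 of 6 libraries, and Ms4a7 above Ms4a6b in 5 of 6. For each pair of neighbours the ranges over the 6 libraries overlapped. By group, Ms4a7 at 4.39 came before Ms4a6c at 4.29 in the controls, and Ms4a6c at 6.68 came before Ms4a7 at 5.89 in the mutants, while Ms4a6d was highest in both groups. These levels depend on the annotated exon length, which ran from 1735 bases in Ms4a6d to 4485 bases in Ms4a6b.

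Summed over the 6 genes, the family was read at 52.8, 48.5 and 63.4 CPM in the controls and at 84.95, 95.4 and 70.9 CPM in the mutants. In fragments, which are not scaled for length, Ms4a7 had the highest mean share, with 35.4% ± 2.1 (SD, n = 3) of the sum in the controls and 30.6% ± 6.76 (SD, n = 3) in the mutants. The share of Ms4a6b was 29.2% ± 1.63 (SD, n = 3) and 27.5% ± 0.564 (SD, n = 3), and in mutant replicate 3 it was above that of Ms4a7, at 27.1% against 23.8%. Ms4a6d made up 16.8% ± 1.71 (SD, n = 3) in the controls and 20.3% ± 2.1 (SD, n = 3) in the mutants. In mutant replicate 1, Ms4a4c took 7.45% of the fragments, against 1.24% to 2.37% in the other 5 libraries.

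Other Ms4a genes and their relatives, 13 in a list taken from general knowledge, had 12 rows, of which 5 could be tested. All 5 had log2 fold changes above 0, and 0 of them passed the edgeR test or separated the groups. Leaving out mutant replicate 2 turned 2 of the 5 below 0 (Ms4a1 and Tmem176a). Ms4a4d, a gene found in stromal and other non-lymphoid cells, was the most abundant Ms4a gene per length, with 15.7 ± 1.07 CPM per kilobase (SD, n = 3) in the controls and a log2 fold change of 0.35 (SE 0.28) that was 0.03 without mutant replicate 3. Ms4a1 (CD20), the B cell gene, ran from 0.348 to 2.44 CPM in the controls and from 0.27 to 6.10 CPM in the mutants, so that single libraries differed more than the groups. Its log2 fold change was 1.09 (SE 1.05), and -0.05 without mutant replicate 2. Ms4a4b was read at 0.739 CPM as the median of the controls and 1.88 CPM as the median of the mutants, with overlapping groups, and its log2 fold change was 1.16 (SE 0.51), or 0.74 without mutant replicate 2. Ms4a2, the beta chain of the mast cell IgE receptor, had 4 to 14 counts per library and was not tested. Ms4a3, Ms4a5, Ms4a13 and Ms4a18 had 0 counts in every library, which allows up to 0.0931 CPM in the library with the lowest total (3 counts, counting error only). Ms4a10 and Ms4a15 had at most 4 counts in any library. Tmem176a and Tmem176b, related genes of myeloid and other cells on chromosome 6, had log2 fold changes of 0.02 (SE 0.12) and 0.05 (SE 0.10), and that of Tmem176a was -0.07 without mutant replicate 2.

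Marker lists for the tissue were read in the same libraries. All 10 valve interstitial and endothelial markers had counts, and their median log2 fold change was 0.02. Heart muscle markers summed to 9064 to 27711 CPM in the controls and 15510 to 33812 CPM in the mutants, so that muscle was present in all libraries in varying amount. Library totals ran from 32218343 to 55728854 fragments, the lowest in mutant replicate 3.

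Macrophage genes were present in every library, and a part of them was read higher in the mutants. Of the 20 genes of the macrophage core list, 14 had log2 fold changes above 0 and 6 below, with a median of 0.21. In 8 of them (Fcgr1, Fcgr3, Cd53, Lyz2, Cd68, C1qa, C1qb and C1qc) every mutant lay above every control, and in 0 every mutant lay below. Of all genes tested this was so in 4.04% and 4.83%, and 3.45% had an unadjusted p under 0.05 in edgeR. The list was not tested as a set. The edgeR test called 0 of the 20, 8 had an unadjusted p under 0.05, and DESeq2 called 1, Lyz2 (adjusted p = 0.00506 in DESeq2 and 0.999 in edgeR). Summed over the list, the level ran from 1798 to 2108 CPM in the controls and from 2297 to 2641 CPM in the mutants. Lyz2, the lysozyme gene, alone gave 757 ± 36.4 CPM (SD, n = 3) and 1045 ± 45.3 CPM (SD, n = 3) of these sums. Csf1r, the receptor on which macrophages depend, had a log2 fold change of 0.14 (SE 0.11) that was 0.04 without mutant replicate 2. Spi1, which encodes PU.1 and is listed as Sfpi1, had one of -0.03 (SE 0.19) that ran from -0.22 to 0.11 when each library was left out. Mertk, a receptor for apoptotic cells, had a log2 fold change of -0.57 (SE 0.40) with control replicate 2 at 43.4 CPM, above all other libraries, and without that library it was -0.10. The part of macrophage number in the Ms4a levels was not tested.

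Levels were also taken as log2(CPM + 0.5) minus the mean of the same quantity over the 20 macrophage core genes in that library. On this scale Ms4a6d was at -2.32 ± 0.161 (SD, n = 3) in the controls and -1.64 ± 0.0801 (SD, n = 3) in the mutants. The difference, mutant minus control, was 0.68 on the log2 scale, and the groups did not overlap. For Ms4a6b the same difference was 0.34, also without overlap. For Ms4a6c, Ms4a7, Ms4a8a and Ms4a4c it was 0.45, 0.20, 0.22 and 0.86, each with overlapping groups. The core mean itself was 5.681, 5.409 and 5.665 in control replicates 1, 2 and 3. In mutant replicates 1, 2 and 3 it was 5.612, 5.98 and 5.677, so that its groups overlapped. The separation of Ms4a6d here thus largely repeats the pattern that the set was chosen for. The share of all genes that separate on this scale was not determined. The offset of 0.5 understates the change of scarce genes, and without it the difference was 0.49 for Ms4a8a, 1.15 for Ms4a4c and 0.71 for Ms4a6d. When the macrophage core mean entered the edgeR fit as a covariate, the log2 fold changes were lower for 4 members, at 0.81 for Ms4a6d, 0.43 for Ms4a6b, 0.54 for Ms4a6c and 0.12 for Ms4a7. In the same fit they were higher for Ms4a4c, at 1.87, and for Ms4a8a, at 1.26.

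**Figure D2:**
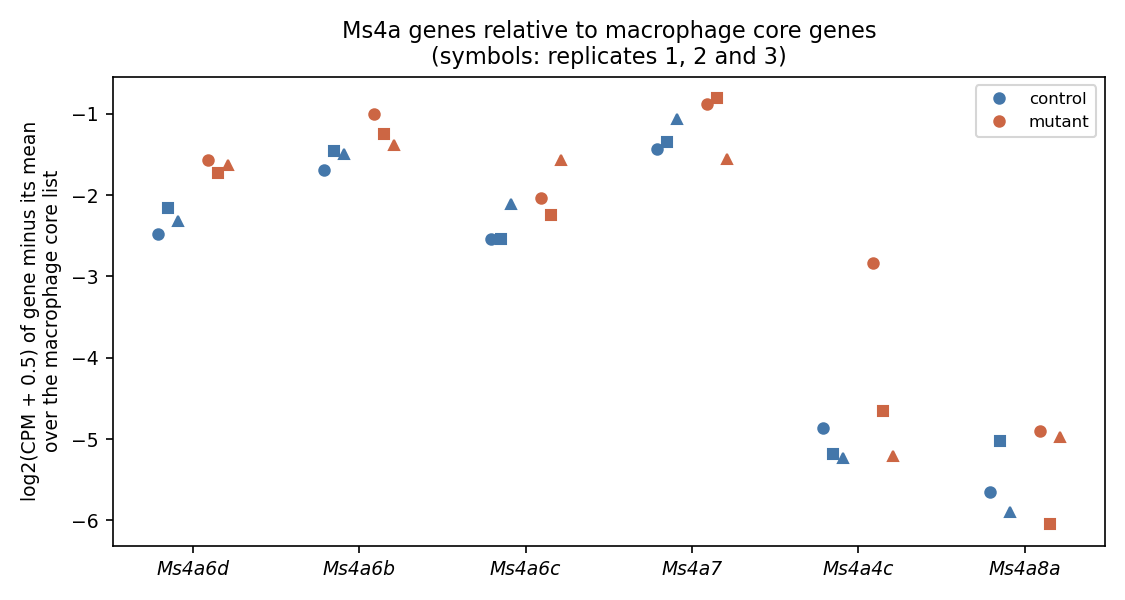
Log2(CPM + 0.5) of each Ms4a gene minus the mean of this quantity over the macrophage core list (vertical axis) in each control and mutant library, with symbols for replicates. Ms4a6d and Ms4a6b are higher in all 3 mutants, and for the other 4 genes the groups overlap. The set was chosen because Ms4a6d was higher in every mutant library.

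Receptors that Ms4a proteins have been described with, or that share their pathways, were read as a list of 6. All 6 had log2 fold changes above 0 (median 0.40), 3 separated the groups, and 0 were called by edgeR. Of all genes tested, every mutant lay above every control in 4.04%, and this list was not tested as a set. Vsig4, a complement receptor of resident macrophages, was read at 9.72, 7.99 and 8.39 CPM in the controls and at 14.6, 22.6 and 33.4 CPM in the mutants. Every mutant lay above every control, and the mutants differed among themselves. The log2 fold change of Vsig4 was 1.44 (SE 0.29, adjusted p = 0.999 in edgeR and 0.00709 in DESeq2), and it was 1.10 when mutant replicate 3 was left out and 1.69 when mutant replicate 1 was. Fcer1g, the signaling chain shared by Fc receptors, was read at 29.9 ± 2.74 CPM (SD, n = 3) and 42.7 ± 4.21 CPM (SD, n = 3), or 0.51 as a log2 fold change (SE 0.12, adjusted p = 0.999 in edgeR). Fcgr2b, the inhibitory Fc receptor, had a log2 fold change of 0.36 (SE 0.15), also without overlap. Trem2, a lipid receptor of macrophages, had a log2 fold change of 0.38 (SE 0.19) and overlapping groups. For Clec7a (Dectin-1), a receptor for fungal glucans, the log2 fold change was 0.42 (SE 0.35), and it was -0.03 without mutant replicate 2. Cd9, a tetraspanin of many cell types, had a log2 fold change of 0.10 (SE 0.21) that was -0.02 without mutant replicate 2.

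Among the 10 resident macrophage genes, which include Vsig4, 6 were above 0 and 4 below, with a median log2 fold change of 0.31, and edgeR called 0. Above 0 were Vsig4, Timd4 at 0.68, Cd163 at 0.54, Pf4 at 0.49, Folr2 at 0.38 and Mrc1 at 0.25, and of these Vsig4 and Pf4 separated the groups. Without mutant replicate 1 the value of Folr2 was 0.18, and without mutant replicate 3 that of Cd163 was 0.26. Below 0 were Gas6 at -0.26, Cbr2 at -0.23, Lyve1 at -0.09 and F13a1 at -0.07, and in Gas6, a ligand of the Mertk receptor, every mutant lay below every control. Leaving out control replicate 2 turned 3 of these 4 above 0, with Cbr2 at 0.01, Lyve1 at 0.18 and F13a1 at 0.06, and left Gas6 at -0.15. Of the 8 monocyte genes, 2 were above 0 and 6 below, with a median of -0.29. Of the 7 dendritic cell genes, 1 was above 0 and 6 below, with a median of -0.12. Of 5 neutrophil, 6 B and plasma cell, 7 T and NK cell and 6 mast cell genes tested, 5, 6, 7 and 5 were above 0, with medians of 1.00, 0.90, 1.05 and 0.78. Mpo, Pax5 and Ncr1 of these lists, named after their values were seen, were too scarce to be tested. The mean CPM of each was lower in the mutants. Ncr1, of the T and NK cell list, had 17, 5 and 2 counts in the controls and 1, 1 and 0 in the mutants. Neutrophil genes summed to 7.57 to 10.9 CPM in the controls and 6.74 to 26.9 CPM in the mutants, and B and plasma cell genes to 4.68 to 13.9 CPM and 7.86 to 32.1 CPM, with overlapping groups. T and NK cell genes summed to 3.68 to 7.89 CPM in the controls and 8.59 to 15.1 CPM in the mutants, so that every mutant lay above every control. Mast cell genes summed to 48.1 to 95.1 CPM in the controls and 89.4 to 143.5 CPM in the mutants. Over these lists edgeR called 0 genes and DESeq2 called 1 in the resident macrophage list (Vsig4) and 1 in the B and plasma cell list (Jchain, listed as Igj, named after its values were seen). Jchain was read at 0.58, 0.22 and 0.48 CPM in the controls and at 3.17, 5.92 and 4.05 CPM in the mutants. Its log2 fold change was 3.36 (SE 0.47, adjusted p = 0.999 in edgeR and 1.02e-08 in DESeq2). The part of these lists in the Ms4a levels was not tested.

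**Figure D3:**
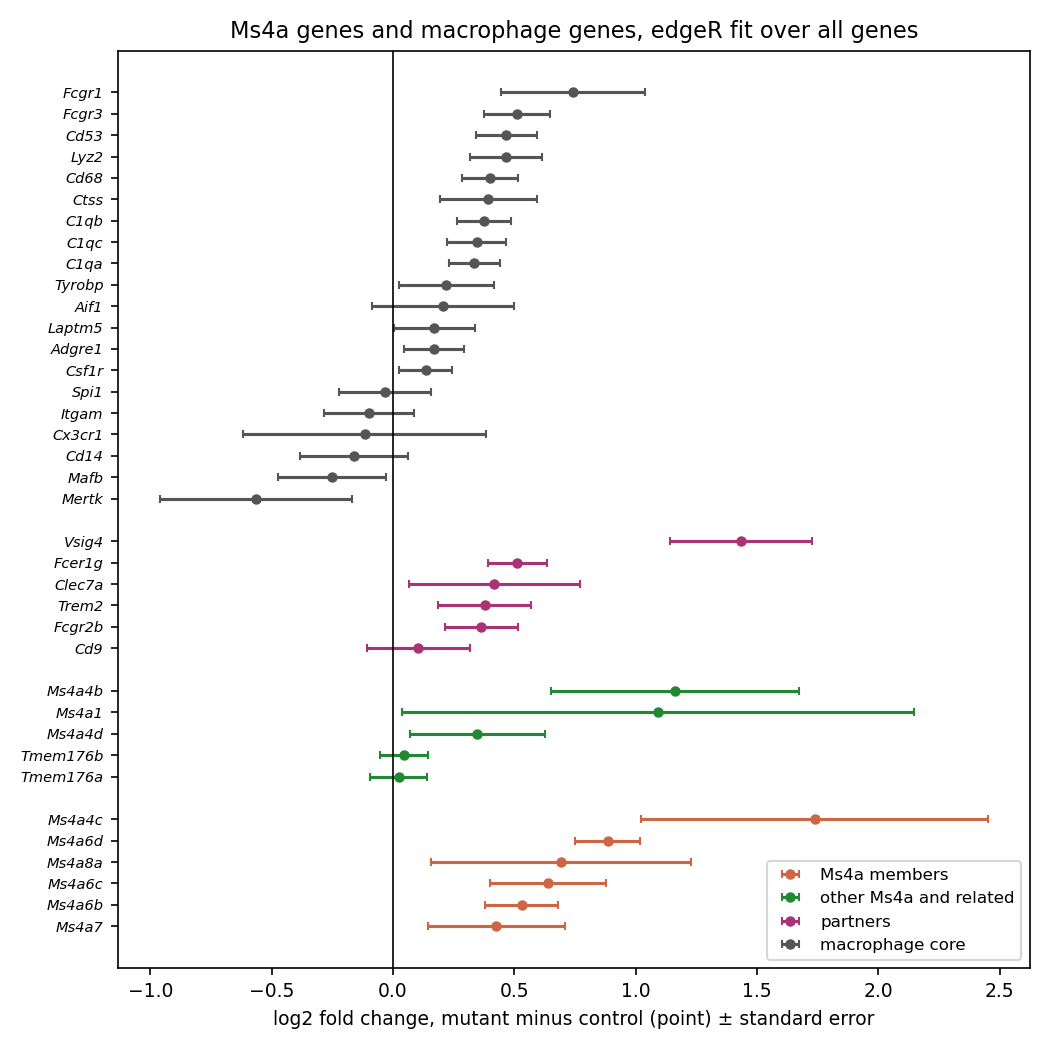
Log2 fold change, mutant minus control (horizontal axis, point ± standard error), from the edgeR fit over all genes for the Ms4a genes, their relatives, the receptor list and the macrophage core list. The 6 Ms4a members lie between 0.43 and 1.74, Vsig4 at 1.44, and the macrophage core genes on both sides of 0.

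To see which genes followed the members from library to library, the mean-centred log2(CPM + 0.5) of each member was compared with that of 11455 other genes with a mean of at least 5 CPM, by the root mean square difference over the 6 libraries. This likeness is a description of 6 libraries, and it includes the difference between the groups. The genes nearest to Ms4a6d were Racgap1 (0.129), a regulator of cell division, Slc12a8 (0.166), a membrane transporter, Prrt2 (0.17), Dck (0.18), a nucleoside kinase, and Tcf7 (0.182), a transcription factor of T cells and Wnt signaling. The median over all genes compared was 0.467. None of these 5 is in the macrophage lists. Little is read from this, as the likeness includes the difference between the groups. The highest log2 fold change in the macrophage core list was 0.74 (Fcgr1), below the 0.88 of Ms4a6d. Without the offset, 4 of the 5 nearest recurred, and Pilra took the place of Tcf7. In deviations from the group means alone, the 5 nearest were Kbtbd2, Trappc10, 2310036O22Rik, March7 and Cmpk1, at 0.0145 to 0.0193. These 5 genes differ little between libraries of a group, as Ms4a6d does.

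For the other members the same measure was applied after their values were seen. The 5 genes nearest to Ms4a4c were Oas1a, Isg15, Irf7, Ifit3 and Usp18, at 0.183 to 0.29 against a median of 0.878, and all 5 are known interferon-stimulated genes. Isg15, an ubiquitin-like modifier, was read at 12.7, 8.13 and 11.8 CPM in the controls and at 48.7, 13.9 and 8.76 CPM in the mutants. Irf7, a transcription factor of the interferon response, was read at 23.5, 15.3 and 15.7 CPM in the controls and at 66.8, 23.5 and 15.4 CPM in the mutants. As in Ms4a4c, mutant replicate 1 was the highest library and mutant replicate 3 lay near the controls. In deviations from the group means, 4 of these 5 (Irf7, Ifit3, Isg15 and Oas1a) were again among the 5 nearest genes. Without the offset, 4 of the 5 nearest recurred, and Ifit1 took the place of Ifit3.

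The genes nearest to Ms4a8a were Pcolce2, Fcna, Folr2, Timd4 and Il17d, at 0.13 to 0.146 against a median of 0.412. Folr2 and Timd4 belong to the resident macrophage list, and Fcna encodes a ficolin made by macrophages. Folr2 was read at 36.2, 35.2 and 24.7 CPM in the controls and at 52.0, 28.0 and 44.8 CPM in the mutants, so that control replicate 3 and mutant replicate 2 were low, as they were for Ms4a8a. In deviations from the group means the 5 nearest to Ms4a8a were Abca6, Smoc2, Timd4, Trim33 and Ebf2, at 0.0733 to 0.101 against a median of 0.353, so that of the former 5 Timd4 alone recurred. The neighbours of Ms4a8a also depend on the offset, as without it 1 of the former 5 (Timd4) recurred and the nearest was Ccl24 (0.0535), a chemokine gene of macrophages. The genes nearest to Ms4a7 were Cst6, Clec4n, Ly86, Tnfrsf23 and Cthrc1, at 0.102 to 0.142 against a median of 0.428. Clec4n (Dectin-2) and Ly86 (MD-1) are genes of myeloid cells. Clec4n was read at 22.5 CPM in mutant replicate 2, its highest library as for Ms4a7, and at 10.9 CPM in mutant replicate 3. In deviations from the group means the 5 nearest to Ms4a7 were Cd72, Lancl2, Cd38, Serpinb9b and Cst6, at 0.0549 to 0.101 against a median of 0.379, and of the former 5 Cst6 alone recurred. The nearest to Ms4a6b was Dck (0.074), and to Ms4a6c it was Mapk8 (0.103), which encodes the kinase JNK1.

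**Figure D4:**
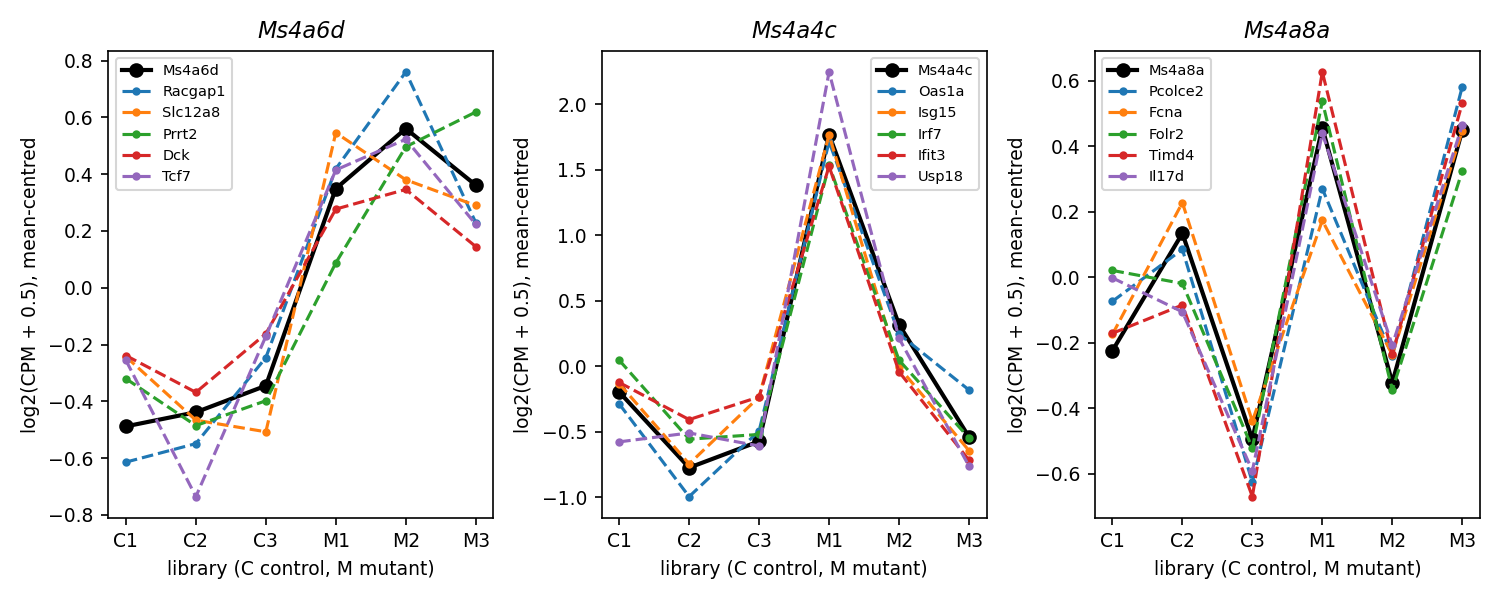
Mean-centred log2(CPM + 0.5) (vertical axis) in control libraries C1 to C3 and mutant libraries M1 to M3 for Ms4a6d, Ms4a4c and Ms4a8a (black) and the 5 genes nearest to each (dashed). Ms4a4c and its neighbours peak in M1, while Ms4a8a and its neighbours dip in C3 and M2.

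Within the groups the members were compared by their deviations from the group means. The root mean square of these on the log2(CPM + 0.5) scale was 0.0802 for Ms4a6d, 0.144 for Ms4a6b, 0.251 for Ms4a6c, 0.316 for Ms4a8a, 0.345 for Ms4a7 and 0.695 for Ms4a4c. The order of Ms4a8a and Ms4a7 depends on the offset, as without it the values were 0.563 for Ms4a8a and 0.353 for Ms4a7. A difference between members depends on these spreads, so that a small one between genes of little spread does not show that they moved together. Ms4a6b and Ms4a6d, the least variable members, had the smallest root mean square difference, 0.102. Ms4a6b and Ms4a7 differed by 0.205, and both deviated to the same side in 6 of 6 libraries, with mutant replicate 3 at -0.245 for Ms4a6b and -0.559 for Ms4a7. Ms4a6c and Ms4a7 differed by 0.437, as mutant replicate 3 was the highest mutant for Ms4a6c (deviation 0.297) and the lowest for Ms4a7 (deviation -0.559). Ms4a7 and Ms4a8a differed by 0.635, with mutant replicate 2 at 0.497 for Ms4a7 and at -0.517 for Ms4a8a. Ms4a4c, the most variable, differed from each other member by 0.634 to 0.852.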

How the data were processed

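RNA of aortic valves (3 control and 3 mutant libraries) was sequenced by the authors on an Illumina HiSeq. Reads were aligned by the authors to mm10 with Bowtie2 (the submitters' processing notes also name TopHat2 2.0.13) and quantified with Cufflinks and Cuffdiff 2.1.1. The deposited values are estimated counts of fragments per gene made by the authors with Cuffdiff, not scaled for library size, and 1.66% to 1.87% of them per library were not whole and were rounded. Columns were matched to samples by their descriptions.

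Genes that reached 10 counts in 3 or more libraries were fitted with edgeR 4.0.16 in R 4.3.3 (TMM normalization, quasi-likelihood F test, no covariates) with Benjamini-Hochberg adjustment over 15354 genes and a threshold of 0.05. Standard errors follow from each log2 fold change divided by the square root of F. Likeness used log2(CPM + 0.5). DESeq2 1.42.0 and limma 3.58.1 were alternatives. The pipeline was tested on simulated data. Gene positions and exon lengths came from GENCODE, and older symbols were matched for Adgre1 (Emr1), Jchain (Igj), Chil3 (Chi3l3), Spi1 (Sfpi1) and Mzb1 (2010001M09Rik). The members, the lists and the rule for named genes were chosen with earlier results of these data known. By that rule the text names the 7 members, the other Ms4a genes, genes of the macrophage and receptor lists, and the 5 genes nearest to Ms4a6d. The 5 genes nearest to each other member were added after their values were seen.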

Additional observations from a re-analysis of the deposited data

How the results depend on the processing

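All 6 members kept a log2 fold change above 0 in each of the 13 alternative settings in which they could be tested. A mean count of at least 100 left out Ms4a4c and Ms4a8a. The median of the members was 0.67 and ran from 0.57 to 0.75 when each library was left out in turn. That of the macrophage core list was 0.21, and was 0.099 without mutant replicate 2, 0.10 without control replicate 2 and 0.34 when control replicate 3 was left out. With all libraries kept, limma-voom with sample weights gave 0.11 for this median, 1.11 for Ms4a4c and 0.26 for Ms4a7. The number of genes with an adjusted p under 0.05 was 0 in edgeR and moved to 26 in DESeq2, and it was 0 in the other 12 settings. Ms4a4c fell from 1.74 to 0.64 without mutant replicate 1, and Ms4a8a went from 0.69 to 1.26 with the macrophage score as a covariate. The causes were not tested. Same-numbered controls and mutants did not all deviate together (correlations of 0.373, 0.171 and 0.0194 over genes). Between different numbers the correlations ran from -0.364 to 0.237. The numbers were not taken as pairs, but these values do not settle whether they are. With the replicate number as a block, the count of genes called was 0 and the median of the members was 0.67. In that edgeR fit 814 genes had an unadjusted p under 0.05, against 529 without the block. The 16 to 59 counts of Ms4a8a limit its precision. Leaving out the offset of 0.5 on the log scale, an alternative chosen after seeing the data, kept the sign of all 6 differences from the macrophage core mean and left 1 of the 5 genes nearest to Ms4a8a in place.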
